A study of Mus musculus with 12 samples.

Results

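Interleukin 10 (IL-10) and transforming growth factor beta (TGF-beta) are inhibitory cytokines of the tumor microenvironment, and the genes of both systems were followed here in A20 tumors after intratumoral injection of a TLR4 agonist. The members were IL-10 and TGF-beta ligand and receptor genes in the deposited table: the cytokine gene Il10, its ligand-binding receptor chain Il10ra, the ligand genes Tgfb1, Tgfb2 and Tgfb3, and the receptor genes Tgfbr1 and Tgfbr2. The co-receptor gene Eng is given with the signalling genes instead. The members were chosen by name, with earlier results of these data known. They made up 7 of the 770 genes of the NanoString nCounter PanCancer Immune panel for mouse, an assay that counts single RNA molecules with barcoded probes.

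A20 is a B-cell lymphoma line of Balb/c origin. Female Balb/c mice, bought at 7 to 8 weeks of age, received A20 cells under the skin, and about 7 days later the tumors were injected 3 times, every other day. The injections held PBS, stable emulsion (SE, an oil-in-water emulsion and the carrier of the agonist), or GLA-SE, which was 10 µg of the synthetic TLR4 agonist glucopyranosyl lipid A in 50 µl of 2% SE and is also called G100. Whole tumors were collected 2 hours after the last injection from 4 mice per group, so each value described a mixture of A20 cells and host cells at 1 early time, and lymphoma cells could not be separated from the other cells. All animals carried the same tumor and had no genetic change, and no group was left without an injection.

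IL-10 is made by activated macrophages, dendritic cells, B cells and T cells, and it acts through a receptor whose IL-10RA chain binds the cytokine and the kinase JAK1, while TYK2 is bound to the partner chain IL-10RB, and both lead to the transcription factor STAT3. STAT3 then drives genes that dampen inflammatory cytokine production, such as Socs3. The TGF-beta ligands are secreted as latent complexes that must be activated outside the cell. The active ligand binds TGFBR2, which phosphorylates TGFBR1, and TGFBR1 in turn phosphorylates SMAD2 and SMAD3, which enter the nucleus with SMAD4. TLR4 signalling in macrophages induces Il10 as a feedback on inflammation, while TGF-beta is best known in tumors for its effects on fibroblasts, vessels and regulatory T cells.

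RefSeq promoter windows were found for 4 of the 7 members (all but Il10, Il10ra and Tgfb3), and those of the ligand genes with the largest and the smallest change after GLA-SE are shown because the pair differed in base composition and in core promoter motifs. Each window ran from 250 bases before to 50 bases after the annotated start and is written 5′ to 3′ on the strand of the gene, in build GRCm38.p6. Capitals mark a TATA box (TATAAA) or a GC box (GGGCGG), each searched on both strands.
Tgfb2: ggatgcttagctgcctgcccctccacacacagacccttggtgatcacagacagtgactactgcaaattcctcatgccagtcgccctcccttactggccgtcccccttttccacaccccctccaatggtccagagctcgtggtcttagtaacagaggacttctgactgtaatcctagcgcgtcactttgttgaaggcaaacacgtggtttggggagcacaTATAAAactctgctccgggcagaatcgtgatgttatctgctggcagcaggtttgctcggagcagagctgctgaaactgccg
Tgfb1: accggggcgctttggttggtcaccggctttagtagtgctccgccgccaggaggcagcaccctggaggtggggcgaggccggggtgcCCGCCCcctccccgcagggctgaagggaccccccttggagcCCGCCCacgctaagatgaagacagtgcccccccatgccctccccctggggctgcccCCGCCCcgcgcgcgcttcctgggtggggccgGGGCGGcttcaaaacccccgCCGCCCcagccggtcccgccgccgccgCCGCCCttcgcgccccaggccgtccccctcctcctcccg
The Tgfb2 window (chr1:186705940-186706239, minus strand) was 54.3% G and C, held 1 TATA box that began 31 bases before the start, and held no GC box. In contrast, the Tgfb1 window (chr7:25686752-25687051, plus strand) was 77% G and C, held 6 GC boxes and had no TATA box. A TATA box was found in 13.6% of the 32851 mouse promoter windows searched in the same way, a GC box in 35.7%, and an AP-1 site (TGANTCA, searched on both strands; none of the 3 motifs contains another) in 7.81%. Neither window held the AP-1 letters. These matches describe the sequence, and binding of a factor was not measured.

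The deposited values were molecule counts that had not been normalised, with totals between 810260 and 1612415 per tumor. Each count was divided by a factor from 16 reference genes of the panel, and the result is called the scaled count. SE replicate 4 stood apart from the other 11 tumors. Its reference genes had a geometric mean of 926.6 counts, against 1501 to 2806 in the other tumors, so its scale factor was 0.496 and scaling raised its counts more than those of any other tumor. For several members, results for SE are therefore given with and without this tumor. The 750 genes other than the reference genes were tested in each comparison with edgeR's quasi-likelihood test, and a gene was called at a Benjamini-Hochberg adjusted p under 0.05.

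After GLA-SE, all 7 members were called higher than after PBS. The largest changes were in Tgfb2 (3.28-fold), Il10 (2.96-fold), Il10ra (2.33-fold) and Tgfb3 (2.12-fold), and the smallest was in Tgfb1 (1.31-fold). This count has to be read against the panel, since 513 of 750 genes (68.4%) were called higher in the same comparison, 516 (68.8%) were called in either direction, 72.4% had an unadjusted p under 0.05, and the median gene changed by 0.90 on the log2 scale. The median of the 7 members was 1.09, and 5 of the 7 were above the panel median. The calls also depended on the scaling. When the tumors were scaled to the panel as a whole, by the median of ratios or by TMM, none of the 7 was called higher, and Tgfb1 was called lower. When all 12 tumors entered 1 fit with reference-gene scaling, the directions were kept but only Il10 and Il10ra were called (adjusted p = 0.0181 and 0.0196, edgeR), with adjusted p from 0.0587 to 0.301 for the other 5. That fit called 255 of 750 panel genes, and the member calls have to be read against this count.

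**Figure D1:**
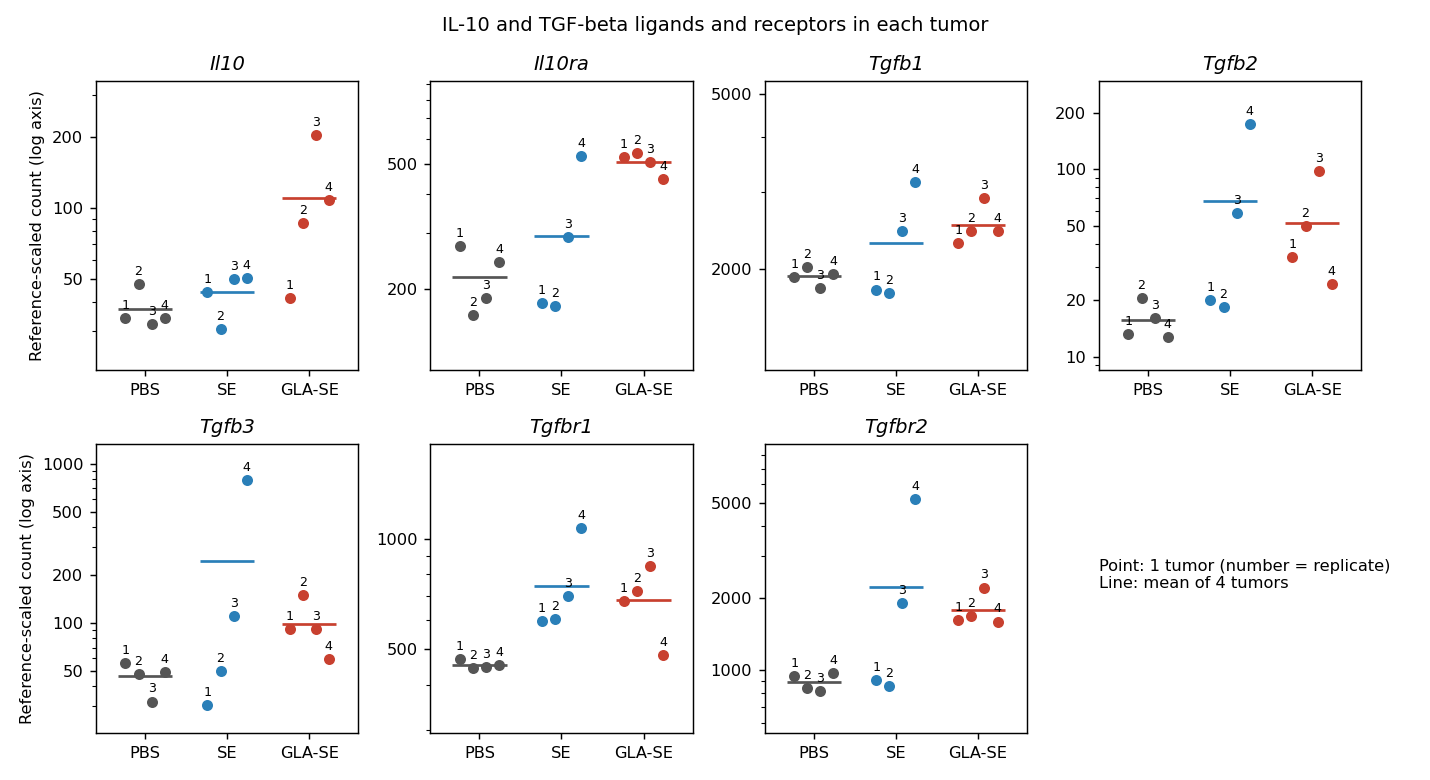
Scaled count of each of the 7 genes (y axis, log scale) in every tumor of the PBS, SE and GLA-SE groups (x axis), with a bar at the mean of 4 tumors. The GLA-SE tumors lie above all PBS tumors for every gene except Il10, and SE replicate 4 is the highest SE tumor for all 7 genes.

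Il10, the cytokine gene, varied widely between the GLA-SE tumors. Its scaled counts were 34.1, 47.6, 32.2 and 34.2 in the 4 PBS tumors, 44.0, 30.7, 49.8 and 50.4 in the SE tumors, and 41.6, 86.4, 203 and 108 in the GLA-SE tumors. Thus 3 GLA-SE tumors lay above every other tumor, whereas GLA-SE replicate 1 lay inside the PBS range. The mean rose from 37.0 ± 7.14 to 110 ± 68.1 (SD, n = 4 in each), a log2 fold change of 1.57 ± 0.44 (SE), with an adjusted p of 0.0123 by edgeR's quasi-likelihood test. Because 1 GLA-SE tumor overlapped with the controls, the exact two-sided permutation test gave p = 0.0571, where the smallest value that 4 against 4 tumors allow is 0.0286. GLA-SE replicate 3 set much of the size of this change, and without it the log2 fold change was 1.09 (adjusted p = 0.0195, edgeR).

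Il10 was read at low depth, with 25 to 66 deposited counts in the PBS and SE tumors and 43 to 184 in the GLA-SE tumors. Among all 12 tumors, after the mean of each group was subtracted, the genes most like Il10 were Cd80, a costimulatory ligand of antigen-presenting cells (r = 0.91), Ebi3, a subunit of IL-27 and IL-35 (r = 0.91), and Cxcl3, a chemokine for neutrophils (r = 0.91). The median correlation of Il10 with 673 panel genes was 0.33. Without GLA-SE replicate 3 these 3 correlations were between 0.79 and 0.83, and without SE replicate 4 between 0.90 and 0.92. The correlations were across tumors that share scaling and are given as a description.

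Il10ra, the receptor chain that binds IL-10, rose in a much more even way. The scaled counts were 274, 164, 187 and 243 after PBS, and 525, 542, 509 and 447 after GLA-SE. The groups did not overlap, on the scaled or on the deposited counts. The mean changed from 217 ± 50.3 to 506 ± 41.6 (SD, n = 4), a log2 fold change of 1.22 ± 0.18 (SE; adjusted p = 0.000774, edgeR). After group means were removed, the correlation of Il10ra with Il10 over the 12 tumors was 0.10, and its correlation with both Tgfb3 and Tgfbr2 was 0.92, as a description of tumors that share their scale factors. The median correlation of Il10ra with 673 panel genes was 0.76.

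Among the TGF-beta ligand genes, Tgfb1, the isoform of most immune cells and platelets, showed the smallest change. It had 1913, 2015, 1811 and 1941 scaled counts in the PBS tumors and 2292, 2437, 2894 and 2435 in the GLA-SE tumors. The groups were separate after scaling, but the deposited counts overlapped (2019 to 2479 after PBS and 2342 to 2621 after GLA-SE). The log2 fold change was 0.39 ± 0.10 (SE; adjusted p = 0.00798, edgeR), which placed Tgfb1 at rank 581 of 750 and under the panel median, and it reversed to -0.47 with scaling to the panel median and to -0.41 with TMM (adjusted p = 0.00562 and 0.00727, edgeR). The direction of Tgfb1 thus followed the scaling, while its log2 fold change was below that of the median gene under all 3 scalings.

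Tgfb2 is an isoform mainly of stromal and epithelial cells, and it was close to the lower end of the assay. Its scaled counts were 13.3, 20.6, 16.1 and 12.7 in the PBS tumors, from 14 to 22 deposited counts, and 33.9, 49.9, 98.3 and 24.5 in the GLA-SE tumors, from 24 to 89 deposited counts. All 4 GLA-SE tumors were above all PBS tumors. The log2 fold change was 1.71 ± 0.44 (SE; adjusted p = 0.00809, edgeR), with a 95% confidence interval from 0.72 to 2.70, and it was 1.202 without GLA-SE replicate 3.

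Tgfb3, the isoform of mesenchymal cells, had 55.9, 47.6, 32.2 and 49.3 scaled counts after PBS and 91.9, 150, 91.6 and 59.3 after GLA-SE. The lowest GLA-SE tumor was just above the highest PBS tumor. Its log2 fold change was 1.09 ± 0.31 (SE; adjusted p = 0.0133, edgeR). The genes most like Tgfb3 over the 12 tumors were Kdr and Tek, which encode endothelial receptors (r = 0.99 for both), and Fap, a gene of activated fibroblasts (r = 0.98), where the median gene reached 0.75. Without SE replicate 4 these values were 0.95, 0.95 and 0.92.

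Both receptor genes were higher after GLA-SE. Tgfbr1, the type I receptor kinase, had 470, 443, 448 and 453 scaled counts in the PBS tumors, with a coefficient of variation of 2.61%, and 677, 722, 840.2 and 481 in the GLA-SE tumors. GLA-SE replicate 4 was near the PBS range and the other 3 tumors were well above it. The log2 fold change was 0.58 ± 0.17 (SE; adjusted p = 0.0135, edgeR). It was also below the panel median and reversed to -0.28 and -0.23 under panel-median and TMM scaling, where it was not called.

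Tgfbr2, the type II receptor that binds the ligand first, had 944, 839.8, 816 and 968 scaled counts after PBS and 1621, 1688, 2217 and 1596 after GLA-SE. The groups were clearly separated. The change was 2.00-fold, a log2 fold change of 1.00 ± 0.13 (SE), with an adjusted p of 0.000461 by edgeR, the lowest among the 7 members. When 1 of the 8 tumors was removed from this comparison, all 7 members were still called, whichever tumor it was. In 6 of the 7 the exact two-sided permutation p was 0.0286, the smallest possible, and 63.7% of all panel genes likewise had GLA-SE tumors entirely above the PBS tumors.

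**Figure D2:**
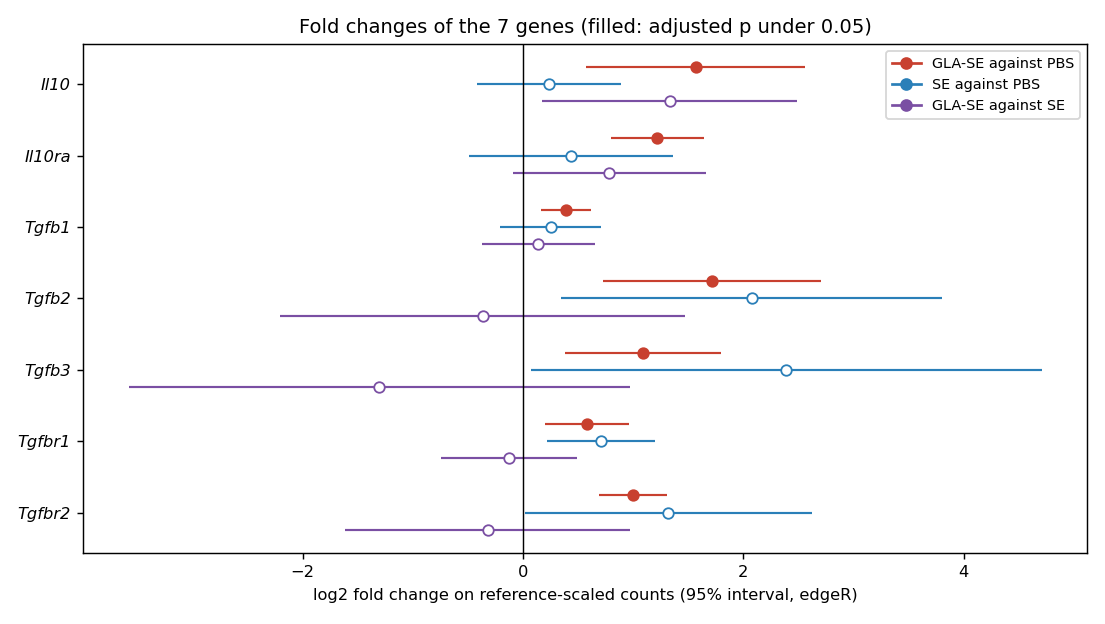
Log2 fold change of the 7 genes (rows) in the 3 comparisons, as points with 95% confidence intervals from edgeR and filled points for called genes. After GLA-SE against PBS every interval is above 0, whereas against SE every point except Il10, Il10ra and Tgfb1 is below 0.

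The emulsion alone did not give a called change in any of the 7 genes. Across the panel 0 of 750 genes (0%) were called between SE and PBS, 134 (17.9%) had an unadjusted p under 0.05, and limma likewise called 0 while DESeq2 called 53. Of the members, 4 had an unadjusted p under 0.05 (Tgfb2, Tgfb3, Tgfbr1 and Tgfbr2), and DESeq2 called Tgfb2 and Tgfbr1 (adjusted p = 0.0468 and 0.0217). The log2 fold change was 0.24 for Il10 (95% interval -0.42 to 0.89), 0.44 for Il10ra (-0.49 to 1.36) and 0.25 for Tgfb1 (-0.21 to 0.71), and under panel-median and TMM scaling all 3 were slightly negative.

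Much of the SE difference came from SE replicate 4. Tgfb3 had 30.6, 50.1, 111 and 785 scaled counts in the SE tumors, and the last of these was 389 counts as deposited, against 46 to 89 in the other 3. Tgfbr2 had 908, 856, 1906 and 5233, and Tgfb2 had 19.98, 18.4, 58.5 and 173. In all 3 genes replicates 1 and 2 were inside or near the PBS range, replicate 3 was above it, and replicate 4 was far above it. Without SE replicate 4 the log2 fold change against PBS fell from 2.39 to 0.45 for Tgfb3, from 1.32 to 0.45 for Tgfbr2 and from 2.08 to 1.02 for Tgfb2.

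Tgfbr1 was the member with the most even difference after SE. Its scaled counts were 596, 605, 699 and 1069, all above the 4 PBS tumors, and 8% of panel genes had such a separation, with 1.2% separated in the other direction. The log2 fold change was 0.71 ± 0.21 (SE) with an unadjusted p of 0.0102 and an adjusted p of 0.256 by edgeR, and it was 0.48 (adjusted p = 0.19) without SE replicate 4. The deposited counts of the groups overlapped.

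The comparison of GLA-SE with SE bears on the agonist apart from its carrier. None of the 7 members was called, where 16 of 750 genes (2.13%) were, and DESeq2 and limma also called none of the 7. An unadjusted p under 0.05 was found for 1 member, Il10, and for 18.5% of the panel. Il10 had the highest log2 fold change, 1.33 ± 0.50 (SE), with an unadjusted p of 0.0288 and an adjusted p of 0.218 by edgeR. The 95% interval ran from 0.18 to 2.48. Without GLA-SE replicate 3 this value was 0.85 (adjusted p = 0.501), and GLA-SE replicate 1, with 41.6 scaled counts, was inside the SE range of 30.7 to 50.4.

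Il10ra, the receptor chain, also had a positive value. Its SE tumors had 179, 176, 293 and 531 scaled counts, so that 3 of them were below all GLA-SE tumors and replicate 4 was within their range. The log2 fold change was 0.78 (95% interval -0.093 to 1.66, adjusted p = 0.315, edgeR). Without SE replicate 4 it was 1.23 with an adjusted p of 0.0249 by edgeR, and Il10ra was then the only member called. The fit without this tumor called 105 panel genes, where the fit with it called 16. The call of Il10ra has to be read against that rise. On the deposited counts, before any scaling, all GLA-SE tumors had more Il10ra than all SE tumors. However, the deposited totals also differed, with 1186487 to 1612415 in the GLA-SE tumors and 810260 to 1268512 in the SE tumors. The panel share with this separation before scaling was not computed. After scaling no member had such a separation, while 14.7% of panel genes did.

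For the 5 TGF-beta genes the log2 fold changes of GLA-SE against SE were small or negative, with 0.14 for Tgfb1, -0.13 for Tgfbr1, -0.32 for Tgfbr2, -0.37 for Tgfb2 and -1.31 for Tgfb3. The intervals were wide, from -0.38 to 0.65 for Tgfb1 and from -3.58 to 0.97 for Tgfb3 and included 0 for all 5. All 4 negative values became positive without SE replicate 4 (0.10, 0.54, 0.69 and 0.63 in the same order), and none of them was called. GLA-SE against PBS and SE against PBS share their control tumors, and GLA-SE against SE shares tumors with both.

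**Figure D3:**
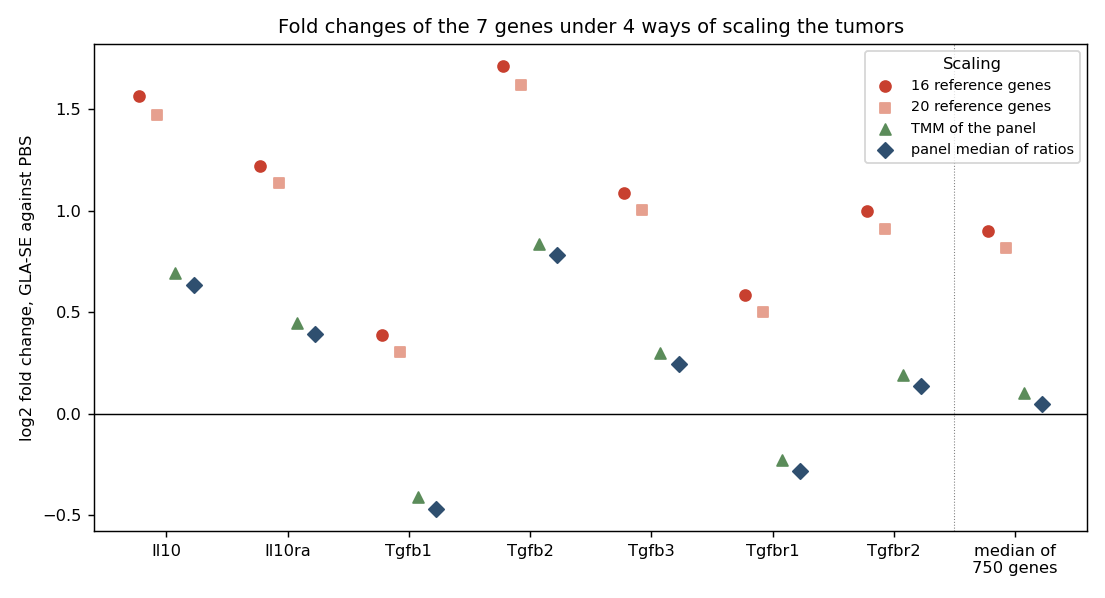
Log2 fold change of the 7 genes for GLA-SE against PBS (y axis) under 4 scalings of the same counts (marker shapes: 16 or all 20 reference genes, TMM and the panel median of ratios), with the median of 750 genes at the right. All 7 genes are above 0 with reference genes, and Tgfb1 and Tgfbr1 are below 0 with the other pair of scalings.

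Cell type markers also differed between the groups, though not all in the same direction. The summed scaled count of 8 endothelial and fibroblast markers was 877 to 1449 in the PBS tumors, 939 to 9755 in the SE tumors and 1720.0 to 3533 in the GLA-SE tumors, and 8 of 8 were called higher after GLA-SE than after PBS. SE replicate 4 held the value of 9755 and SE replicate 3 the next of that group, 2385. The 8 monocyte and macrophage markers were also all called higher after GLA-SE (28968 to 37189 after PBS, 83355 to 124450.0 after GLA-SE), as were 4 of 8 T cell, 3 of 4 NK cell and 3 of 5 neutrophil markers, with Camp and Ltf among the latter at means under 20. Of the 7 B cell markers, 2 were called lower and none higher, with sums of 19769 to 23116 after PBS and 16296 to 18966 after GLA-SE. The NK cell marker that was not called, Klrb1c, had a log2 fold change of -0.26, and 1 of 2 platelet markers was called higher. These counts have to be read against the 68.4% of panel genes called higher. The median log2 fold change was 0.98 for endothelial and fibroblast and 0.84 for T cell markers, against 0.90 for the panel. It was 1.62 for monocyte and macrophage, 1.38 for NK cell, 2.23 for neutrophil and -0.22 for B cell markers. In whole tumors more cells of a type and more RNA per cell cannot be told apart, and the part of these cell types in the change of the members was not tested.

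The correlation of the members with the stromal markers varied. After the group means were removed, the correlation over 12 tumors, as a description, with the sum of the 8 endothelial and fibroblast markers was 0.99 for Tgfb3, 0.94 for Il10ra, 0.94 for Tgfbr2, 0.86 for Tgfb1, 0.81 for Tgfb2, 0.80 for Tgfbr1 and 0.12 for Il10. The median correlation with 673 single panel genes was 0.75, 0.76, 0.81, 0.79, 0.75, 0.68 and 0.33 in the same order. Without SE replicate 4 the correlation with the marker sum was 0.94 for Tgfb3 and between 0.49 and 0.82 for the other TGF-beta genes and Il10ra, and -0.022 for Il10. These tumors share the scale factor in both measures.

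A ratio of deposited counts needs no scaling, so each member was also expressed per 1000 counts of the stromal markers. This ratio was added after seeing the data. The markers rose by a median log2 fold change of 0.98, against 0.90 for the panel. A gene with the typical change of the panel would therefore also keep its ratio, and an unchanged ratio cannot mark a gene as stromal. No ratios of other panel genes were set beside it. Tgfb3 then had 43.2, 44.2, 36.7 and 34.01 counts in the PBS tumors and 38.7, 42.4, 44.1 and 34.5 in the GLA-SE tumors. The ranges overlapped, with means of 39.5 ± 4.96 and 39.9 ± 4.29 (SD, n = 4; exact two-sided permutation p = 0.886). In the SE tumors the ratio was 32.6, 49.0, 46.5 and 80.4, with SE replicate 4 again the highest. Tgfbr2 had 777 ± 112 per 1000 after PBS and 789 ± 262 after GLA-SE (exact p = 0.914).

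The ratio of Il10 was more spread. It was 32.7 ± 9.51 per 1000 stromal marker counts after PBS and 17.5, 24.4, 97.9 and 63.0 in the 4 GLA-SE tumors, where replicates 3 and 4 were above the PBS range of 23.6 to 44.2 and replicate 1 was below it (exact two-sided permutation p = 0.6). Tgfb1 went from 1688 ± 337 to 1116 ± 352 per 1000, with exact p = 0.0857. Il10ra went from 186 ± 30.8 to 220 ± 47.1 (exact p = 0.257) and Tgfb2 from 14.1 ± 5.35 to 22.5 ± 16.6 (exact p = 0.343). Tgfbr1 went from 399 ± 84.4 to 293 ± 82.9 (exact p = 0.114).

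**Figure D4:**
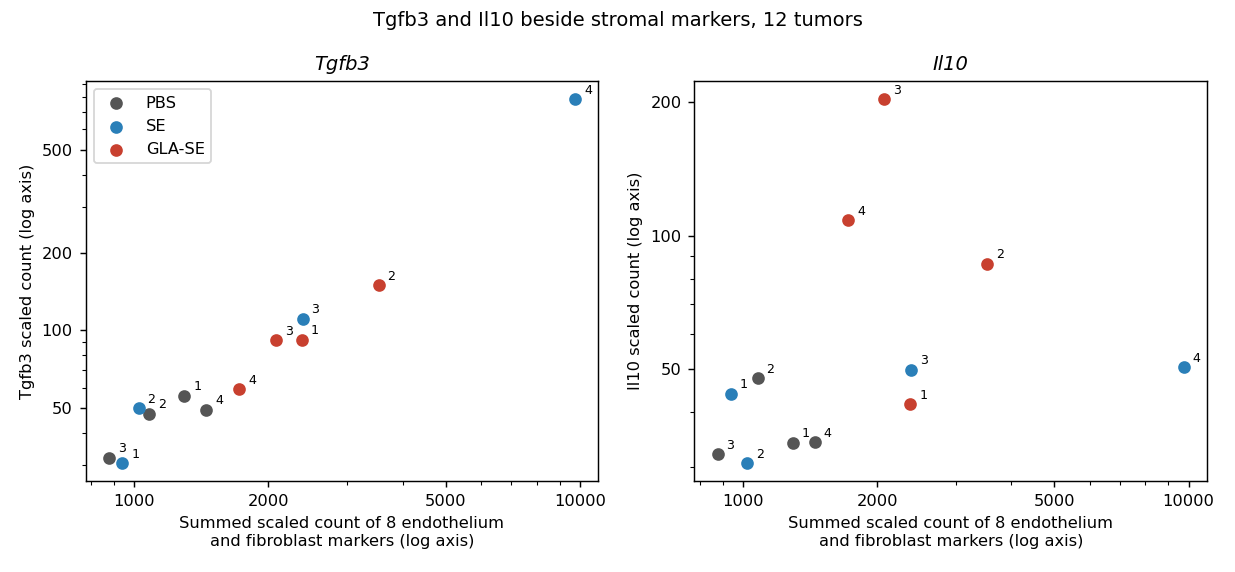
Scaled count of Tgfb3 and of Il10 (y axes, log scale) against the summed scaled count of 8 endothelial and fibroblast markers (x axes, log scale) in the 12 tumors, coloured by group. The Tgfb3 points follow the marker sum up to SE replicate 4 at 9755, while the Il10 points do not.

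The components that carry these signals inside the cell were compared next, from lists of 28 genes in all, of which 20 were called higher after GLA-SE than after PBS and none lower (median log2 fold change 1.12, against 0.90 for the panel). The share of the panel called higher was 68.4%, and the counts of these lists have to be read against it. Of the genes for IL-10 receptor signalling and its targets, 6 of 6 were called higher. Socs3, a feedback inhibitor of cytokine receptors and a STAT3 target, went from 102 ± 26.5 to 843 ± 719 scaled counts (log2 fold change 3.04, adjusted p = 0.00186, edgeR). Il1rn, the IL-1 receptor antagonist, went from 498 ± 92.0 to 3277 ± 3742 (2.72). The GLA-SE medians were lower than these means, at 571 for Socs3 and 1683 for Il1rn, with the highest tumors at 1901 and 8857. The kinases Jak1 (0.80) and Tyk2 (0.79) and the transcription factor Stat3 (0.95) rose less, as did Sbno2 (1.27), a corepressor downstream of STAT3. Socs3 and Il1rn were still called higher under both other scalings, whereas the other 4 were not called and Jak1 and Tyk2 were then slightly under 0 (-0.070 and -0.066 with the panel median, -0.014 and -0.0086 with TMM). Many other cytokines also signal through STAT3, and these genes do not report IL-10 alone.

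Of the genes known to induce Il10, 4 of 4 were called higher. Prdm1, which encodes the transcription factor BLIMP-1, rose from 77.9 ± 10.5 to 316 ± 101 scaled counts (log2 fold change 2.02, adjusted p = 0.000345, edgeR) and was called higher under all 3 scalings. Ebi3 rose by 1.47, Il27 by 1.25 and the transcription factor Maf by 1.11, and none of these was called under the other scalings. Il27 was low, with a mean of 18.3 scaled counts after GLA-SE. Against SE, Prdm1 and Ebi3 had all GLA-SE tumors above all SE tumors (log2 fold changes 1.46 and 1.07), a separation that 14.7% of panel genes had. For Ebi3 the deposited counts of these groups overlapped. Prdm1 and Ebi3 were not called against SE, with adjusted p of 0.0802 and 0.221 by edgeR.

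Of the relatives of IL-10, 1 of 5 was called higher. This was Il22ra2, which encodes a soluble decoy receptor of IL-22, at 10.96 ± 2.84 scaled counts after PBS and 38.2 ± 35.8 after GLA-SE. Its ranges in these groups overlapped, and it was not called under panel-median or TMM scaling (adjusted p = 0.218 and 0.201, edgeR). Il19, Il22, Il24 and Il22ra1 were not called with reference genes, Il24 and Il22ra1 were called lower under both other scalings, and all but Il22ra1 had means of at most 31.5 scaled counts in every group. SE replicate 4 had 664 scaled counts of Il22ra2, where the mean over the GLA-SE tumors was 38.2.

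The TGF-beta signalling list was mixed, with 4 of 7 called higher and a median log2 fold change of 0.40, under that of the panel. Thbs1, whose product thrombospondin 1 activates latent TGF-beta, rose from 209 ± 44.7 to 979 ± 851 scaled counts (log2 fold change 2.22, adjusted p = 0.00688, edgeR). Its GLA-SE median was 652, with the highest tumor at 2224. The signal transducer Smad3 rose from 139 ± 15.8 to 307 ± 76.1 (1.14) and the co-receptor Eng, a gene of endothelium, by 1.12. Map3k7, the kinase TAK1, rose by 0.40 with reference genes and was called lower, at -0.47 and -0.41, under the other scalings. Smad2 (0.19), Smad4 (0.20) and the TAK1 partner Tab1 (0.12) were not called with reference genes, and all 3 were called lower under both other scalings. Thus Thbs1 was the only gene of this list called higher under all 3.

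Genes that respond to TGF-beta, though not to it alone, were called higher in 5 of 6 cases. Col1a1 and Col3a1, the fibrillar collagens, rose by 1.704 and 1.64 on the log2 scale (adjusted p = 0.000428 and 0.00138, edgeR) and were called higher under all 3 scalings. Foxp3, the factor of regulatory T cells, went from 36.7 ± 14.6 to 92.9 ± 25.9 scaled counts (1.33), Fn1 by 1.14 and Itgae, the integrin chain CD103, by 1.08, and these 3 were not called under the other scalings. Snai1 had a log2 fold change of 0.96 and an adjusted p of 0.0768. Col3a1 reached 90245 scaled counts in the highest SE tumor, against 15721 in the highest GLA-SE tumor.

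Between SE and PBS, and between GLA-SE and SE, 0 of the 28 genes were called with edgeR, while DESeq2 called 2 in the latter. For GLA-SE against SE, Socs3 had the highest log2 fold change, 1.86 (unadjusted p = 0.034, adjusted p = 0.223, edgeR), and Il22ra2 the lowest, -2.21 (adjusted p = 0.487), with the SE mean of Il22ra2 resting on SE replicate 4.

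**Figure D5:**
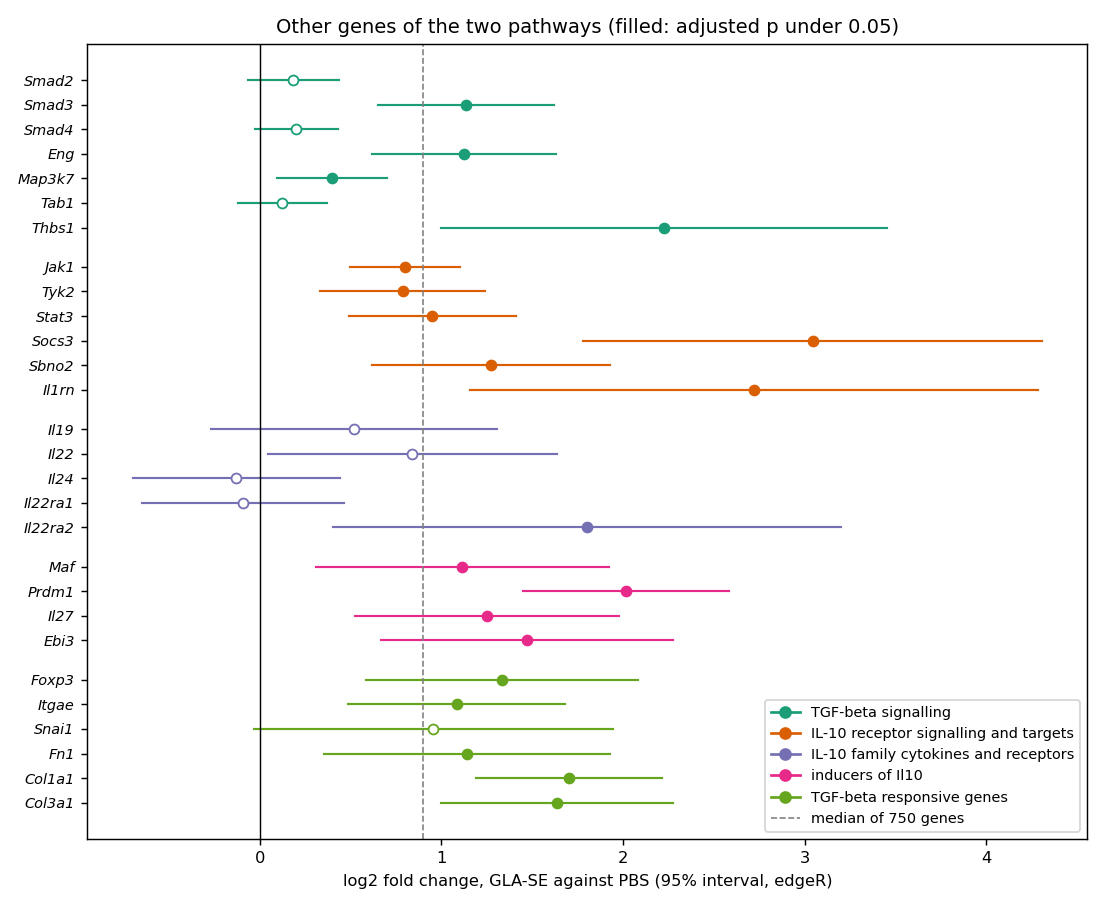
Log2 fold change for GLA-SE against PBS (x axis) of the 28 genes in the 5 signalling lists (in rows, coloured by list), with 95% confidence intervals from edgeR, filled points for called genes and a line at the panel median of 0.90. Socs3, at 3.04, is farthest to the right, and Smad2, Smad4 and Tab1 are left of the panel median with intervals that include 0.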

How the data were processed

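RNA of 12 tumors, 4 per group, was hybridised to the panel, and the authors deposited whole-number counts per gene; their normalization in nSolver was not part of these values. The labels number the tumors within each group. With 4 mice per group, each tumor was taken to be from a separate mouse, and the errors then describe the spread between mice. The 7 members, the signalling lists and the marker lists were chosen with earlier results of these data known. Reference genes were selected once over all 12 tumors by pairwise stability (geNorm), which kept 16 of 20, and each count was divided by the geometric mean of these genes in its tumor relative to that over all tumors.

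Each comparison was fitted to its 8 tumors with edgeR 4.0.16 in R 4.3.3 (quasi-likelihood test, no minimum count, reference-gene factors as offsets), with Benjamini-Hochberg adjustment over 750 genes. Errors of fold changes are standard errors derived from the F statistic. Single values were compared by an exact two-sided permutation test of log2(scaled count + 1) over 70 assignments. The alternatives were panel-median and TMM scaling, all 20 reference genes, reference genes selected within a comparison, a minimum of 20 counts in 4 of 8 tumors, DESeq2 1.42.0, limma 3.58.1, 1 fit of all 12 tumors, the replicate number as a block and leaving out each tumor. The ratio to stromal markers was added after seeing the data. The genes named as most like a member were the 3 with the highest correlation among genes with a mean of at least 20 scaled counts. The edgeR fit was tested on simulated data. Figures were drawn with matplotlib 3.10.9.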

Additional observations from a re-analysis of the deposited data

Results flagged for a closer look

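In each of 21 sets of 4 tumors (7 genes in 3 groups), the gap of the highest or lowest tumor to the next was compared with the range of the set by Dixon's criterion. It was exceeded in 3 sets, where chance gives about 1.05 of 21 (5%). Il10 in PBS replicate 2 had 47.6 scaled counts, against 32.2 to 34.2 in the other PBS tumors. Tgfb3 in SE replicate 4 had 785 scaled counts, against 30.6 to 111 in the other SE tumors. Tgfbr2 in GLA-SE replicate 3 had 2217 scaled counts, against 1596 to 1688 in the other GLA-SE tumors. What set these tumors apart was not tested.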

How the results depend on the processing

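The calls depended on the scaling and on the tumors fitted together. For GLA-SE against PBS the calls among the 7 members went from 7 to 1 with the panel median and 1 with TMM (Tgfb1, lower in both), those among the 28 signalling genes from 20 to 12 and 12 (6 higher and 6 lower in each), and those on the panel from 516 (513 higher, 3 lower) to 326 (173 higher, 153 lower) and 332 (189 higher, 143 lower), while the panel's median log2 fold change went from 0.90 to 0.05 and 0.10. Tgfb1 reversed to -0.47 and -0.41, and Tgfbr1 to -0.28 and -0.23. For SE against PBS, Il10 reversed to -0.12 and -0.11, Il10ra to -0.078 and -0.051, and Tgfb1 to -0.16 and -0.14, and for GLA-SE against SE, Tgfb1 reversed to -0.31 and -0.27, with 3 and 3 panel genes called in place of 16. One fit of all 12 tumors called 2 members (Il10 and Il10ra), 8 signalling genes and 255 panel genes for GLA-SE against PBS, and 79 panel genes and 1 signalling gene for GLA-SE against SE. DESeq2 called 2 members and 53 panel genes for SE against PBS, and 2 signalling genes and 108 panel genes for GLA-SE against SE.

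For GLA-SE against SE, limma turned Tgfb2 to 0.023 and Tgfbr2 to 0.080. Without 1 tumor, Il10ra for SE against PBS ranged from -0.0098 to 0.62, and, for GLA-SE against SE, Tgfb2 from -0.88 to 0.69, Tgfb3 from -1.68 to 0.63, Tgfbr1 from -0.24 to 0.10 and Tgfbr2 from -0.59 to 0.54, where each reversal was without SE replicate 4, except that Tgfbr1 also reversed, to 0.0092, without GLA-SE replicate 4. Over the fits without 1 tumor, GLA-SE against PBS gave 7 members in all 8, 443 to 504 panel genes and 17 to 20 signalling genes. GLA-SE against SE gave 0 to 1 member, 0 to 1 signalling gene and 4 to 105 panel genes, with 1 member, 1 signalling gene and 105 panel genes without SE replicate 4. Per stromal marker count, Il10 for SE against PBS reversed to -0.68 (exact permutation p = 0.514), and for GLA-SE against PBS the log2 ratio was 0.35 for Il10 and 0.017 for Tgfb3 (exact p = 0.6 and 0.886). The replicate numbers did not pair the tumors (correlations of same-numbered tumors from -0.25 to 0.19, and the best match had the same number in 8 of 24 cases). With the replicate number as a block, 7 members, 19 signalling genes and 439 panel genes were called for GLA-SE against PBS and 0 panel genes for GLA-SE against SE, where Tgfb2 (0.17), Tgfb3 (0.024) and Tgfbr2 (0.12) reversed; no member call changed under the block. Causes were not tested. Low counts limit Tgfb2 and Il10, with 14 to 89 and 25 to 184 deposited counts.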
